A study of Mus musculus with 12 samples.

Results

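The genes described here are a set of costimulatory molecules of T cells: the tumour necrosis factor (TNF) receptor family members *Tnfrsf4* (OX40), *Tnfrsf9* (4-1BB) and *Cd27*, the TNF family ligands *Tnfsf8* (CD30 ligand), *Tnfsf11* (RANKL), *Tnfsf14* (LIGHT), *Cd40lg* (CD40 ligand), *Cd70* and *Lta* (lymphotoxin alpha), and the costimulatory receptor *Cd28*. They were chosen by gene symbol, and all 10 were found among the 45777 genes of the deposited table. RNA was sequenced from CD4+ T cells of the spleen of wild-type Balb/c mice aged 7 weeks, as the labels describe them. The methods name B6 mice for the sequencing and give an older age at purchase. Anti-CD3, an antibody that engages the T-cell receptor complex, was present in all 4 groups at 0.5 ug/mL over 3 days of culture. They were cultured with anti-CD3 alone, with anti-CD3 and *L. acidophilus* (a lactic acid bacterium, inactivated by heat in the study's cell cultures), with anti-CD3 and FK506 (tacrolimus, an inhibitor of the phosphatase calcineurin), or with anti-CD3 and the combination of both. Each group had 3 libraries numbered 1 to 3. No source states that they came from separate mice or cultures, so the p-values measure only the spread between these libraries, which may be technical. The doses given to the sequenced cells are not given in the sources used here. No group was left unstimulated, so the levels describe cultures with anti-CD3 only.

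A T cell that binds antigen needs a further signal to expand and survive. CD28, which binds CD80 and CD86 on antigen-presenting cells, gives this signal early, and receptors of the TNF family such as OX40, 4-1BB and CD27 extend it by recruiting TRAF adaptor proteins that activate NF-kB. The ligands of the family work in the other direction as well: activated CD4+ T cells display CD40 ligand, CD30 ligand, RANKL and LIGHT to B cells, dendritic cells and stromal cells. Calcineurin, the target of FK506, activates the transcription factor NFAT, which drives many genes that follow T-cell receptor signaling, *Cd40lg* among them.

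Libraries held 45416397 to 64658165 counts, and the 4 libraries numbered 1 were the deepest in their groups. The T-cell markers *Cd3d*, *Cd3e*, *Cd3g*, *Cd4*, *Lck*, *Cd5* and *Cd2* were present in every library, with a summed level of 1264 to 2081 FPKM (fragments per kilobase of transcript, scaled to the number of fragments in the library). The summed level of 11 B-cell markers was 40.41 to 67.74 FPKM in the anti-CD3 libraries, 27.15 to 38.73 in those of *L. acidophilus*, 240.6 to 484.5 in those of FK506 and 140.9 to 168 in those of the combination. The groups therefore differed in B-cell transcripts, and the part of other cells in the changes described here was not tested. In these bulk samples fewer cells of a type and less RNA per cell cannot be told apart.

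The order of the genes by level differed between the groups. FPKM is scaled to transcript length, so it allows genes to be compared within a group. With anti-CD3 alone *Tnfrsf4* had the highest level, 414 FPKM ± 112 (SD, n = 3), followed by *Tnfrsf9* with 245 ± 38.7, and the ranges of these neighbours over the libraries did not overlap. *Tnfsf8* (135), *Cd28* (118), *Lta* (66.1) and *Cd27* (40.2) followed, each overlapping with the next. *Cd40lg* (20) and *Tnfsf14* (16.1) overlapped as well, *Tnfsf11* (7.61) lay below them, and *Cd70* was lowest with a mean of 1.54 FPKM. *Tnfrsf4* also led with *L. acidophilus* (302 FPKM) and with FK506 (214 FPKM), where its range overlapped with that of *Tnfsf8* (133 FPKM). With the combination, *Tnfrsf9* (215 FPKM), *Cd28* (198) and *Tnfrsf4* (191) shared the top with overlapping ranges, and *Cd27* (117) came next, apart from its neighbours on both sides. *Tnfsf14* had dropped to 2.67 FPKM there, and its range overlapped with that of *Cd70* (1.68 FPKM). TPM values gave the same order in all 4 groups.

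**Figure D1:**
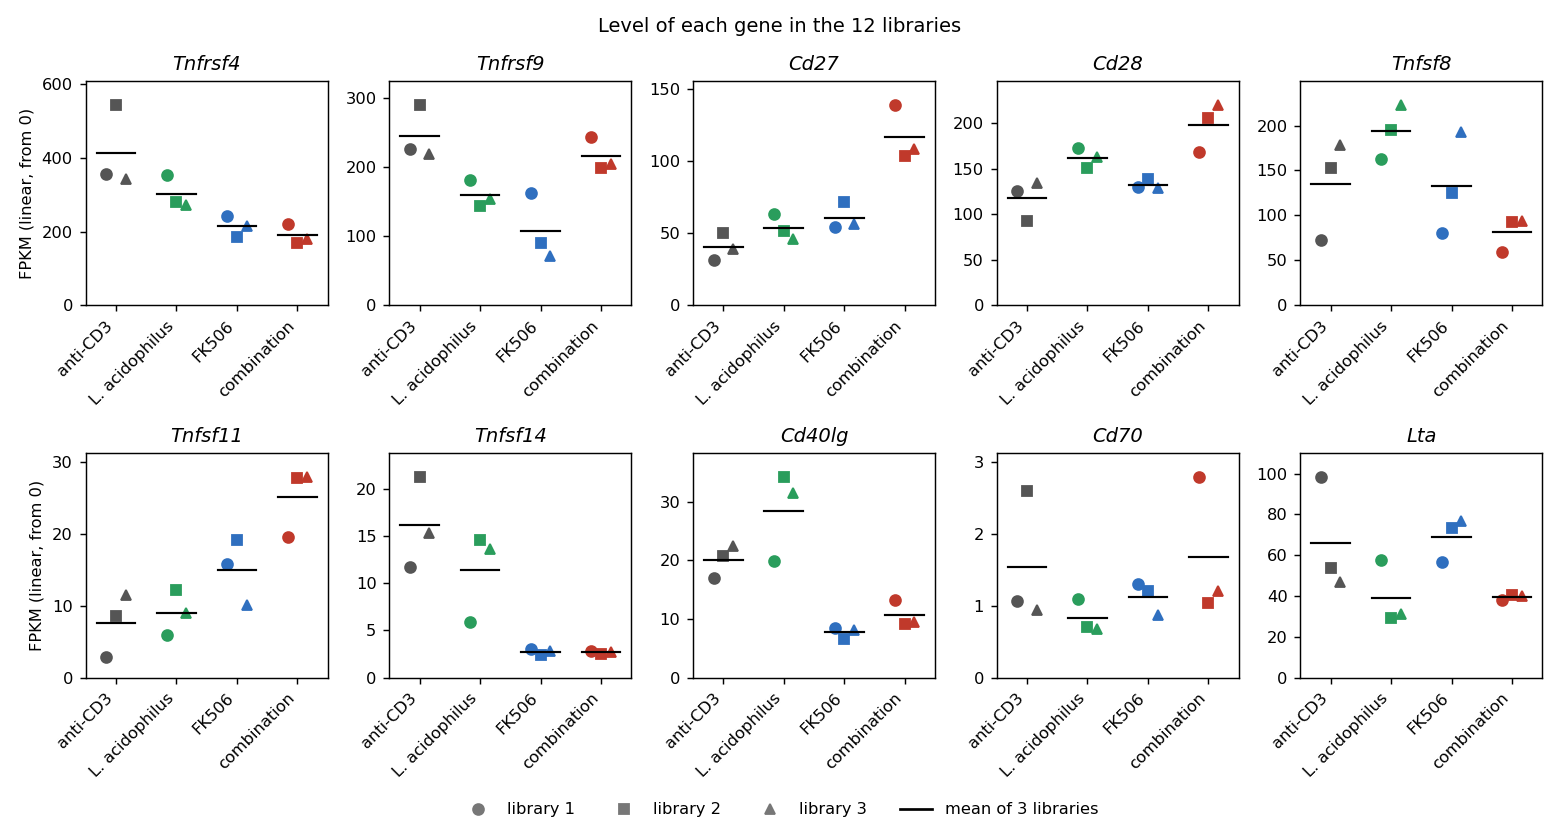
Level of each of the 10 genes in FPKM (vertical axis, linear from 0, a separate scale for each gene) in the 4 groups (horizontal axis). Each point is 1 library, its shape gives the library number and the line is the mean of 3 libraries; *Tnfsf14* lies between 2.40 and 3.08 FPKM in the 6 libraries with FK506 and between 5.88 and 21.3 in the 6 without it, and *Cd27* is highest in the 3 libraries of the combination.

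Against anti-CD3 alone, the combination raised *Cd27*, *Cd28* and *Tnfsf11* and lowered *Tnfsf14*, *Tnfrsf4*, *Cd40lg* and *Lta*. By edgeR's quasi-likelihood test on the counts with Benjamini-Hochberg adjustment over all 23585 genes tested (called at an adjusted p under 0.05, which all adjusted p values here refer to), 3 of the 10 genes were higher, 4 were lower and 3 did not pass. Of all genes tested, 43.3% were called in this comparison, 21.5% as higher and 21.8% as lower. A call with at least a 2-fold change was made for 5 of the 10, against 24.6% of all genes. The median log2 change was -0.61 over the 10 genes and 0.02 over all genes. The FPKM ranges of the groups did not overlap for the same 7 genes, and for 50.0% of all genes.

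Upstream sequences are shown for 3 genes whose changes the results below turn on: *Tnfsf14*, the gene with the lowest level under FK506 relative to anti-CD3, *Tnfrsf9*, the gene whose response to *L. acidophilus* differed with FK506 present, and *Tnfsf11*, which rose with the combination. These are the 250 bases before the outermost annotated start of each gene in RefSeq (GRCm38.p6, from the C57BL/6J strain), so they hold no transcribed bases of the gene. They are printed 5′ to 3′ on the strand of the gene, and capitals mark matches to the NFAT core GGAAA or the AP-1 site TGANTCA on either strand.
Tnfsf14, chr17:57194182-57194431, minus strand: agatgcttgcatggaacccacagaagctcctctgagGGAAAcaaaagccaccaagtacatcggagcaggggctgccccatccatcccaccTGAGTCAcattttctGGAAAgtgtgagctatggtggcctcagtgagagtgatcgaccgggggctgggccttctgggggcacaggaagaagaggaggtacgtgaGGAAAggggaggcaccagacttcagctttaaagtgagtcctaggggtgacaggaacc
Tnfrsf9, chr4:150919905-150920154, plus strand: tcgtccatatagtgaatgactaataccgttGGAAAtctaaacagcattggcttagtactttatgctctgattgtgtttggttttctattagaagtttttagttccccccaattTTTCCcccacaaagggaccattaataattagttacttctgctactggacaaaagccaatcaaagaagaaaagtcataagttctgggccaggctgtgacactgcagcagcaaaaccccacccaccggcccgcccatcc
Tnfsf11, chr14:78308044-78308293, minus strand: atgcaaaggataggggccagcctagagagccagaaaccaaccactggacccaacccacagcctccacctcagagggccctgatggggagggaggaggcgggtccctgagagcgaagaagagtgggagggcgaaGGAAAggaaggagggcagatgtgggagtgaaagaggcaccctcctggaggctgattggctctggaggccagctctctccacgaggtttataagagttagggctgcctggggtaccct
*Tnfsf14* held 3 NFAT cores, which begin 214, 145 and 57 bases before the start, and an AP-1 site that begins 160 bases before it. *Tnfrsf9* held 2 NFAT cores in this window and 3 in a second, internal window, *Lta* held 2, and *Tnfsf11*, *Tnfrsf4*, *Cd27* and *Tnfsf8* held 1 each. The windows of *Lta*, *Tnfrsf4*, *Cd27* and *Tnfsf8* precede a start that is not the outermost one, so part of each lies inside the gene, and the cores of *Lta*, *Cd27* and *Tnfsf8* fall in that part. An NFAT core was found in at least 1 window of each of the 7 genes with an entry (the 3 above with *Tnfrsf4*, *Cd27*, *Tnfsf8* and *Lta*), against 55.6% of 32851 windows of this length, and 6.39% of all windows held 3 or more. AP-1 sites were found in *Tnfsf14* and in the internal window of *Tnfrsf9*, and in 6.75% of all windows. The latter, which ends before a start at chr4:150927999, also held the only NF-kB matches, 2 that overlap each other, against 3.9% of all windows. An NF-kB match can overlap an NFAT core. *Cd40lg*, *Cd70* and *Cd28* had no entry. These matches describe letters in a window and were not tested for binding.

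Among the receptors, *Tnfrsf4* (chr4:156013595-156016613, GRCm38.p6) encodes OX40, which activated T cells display and which prolongs their survival. Its level was 356, 543 and 344 FPKM in libraries 1, 2 and 3 with anti-CD3 alone, 355, 281 and 271 with *L. acidophilus*, 242, 184 and 216 with FK506 and 221, 170 and 181 with the combination. All 6 libraries with FK506 were below all 6 without it. *Tnfrsf4* fell by 1.33 on the log2 scale with the combination (SE 0.21, edgeR adjusted p = 0.000328), a 2.51-fold lower level, and fell by 1.07 with FK506 (SE 0.21, adjusted p = 0.00433). The combination did not differ detectably from FK506 alone (log2 change -0.26, SE 0.20, adjusted p = 0.412), whereas it was lower than *L. acidophilus* alone by 0.79 (adjusted p = 0.0111). The gene shares 16 bases with its neighbour *Sdf4*, which also fell with the combination by 0.66 (adjusted p = 0.0129).

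*Tnfrsf9* (chr4:150920155-150946104), which encodes 4-1BB, another receptor of activated T cells, had a different pattern. Its level was 226, 290 and 219 FPKM with anti-CD3 alone, 181, 144 and 153 with *L. acidophilus*, 162, 90.3 and 70.9 with FK506, and 244, 199 and 204 with the combination. The 3 FK506 libraries lay below the 3 anti-CD3 libraries and below the 3 combination libraries, and the last 2 groups overlapped. *Tnfrsf9* fell by 1.27 on the log2 scale with FK506 (SE 0.24, edgeR adjusted p = 0.00427), a 2.4-fold lower level. With the combination it was 0.95 higher than with FK506 (SE 0.24, adjusted p = 0.0181) and differed from anti-CD3 alone by -0.32 (SE 0.24, adjusted p = 0.304).

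*Cd27* (chr6:125232620-125237136) encodes the receptor for CD70, which naive T cells already carry and which supports their expansion and survival. It was measured at 31.3, 50.4 and 39.1 FPKM with anti-CD3 alone, 63.3, 51.8 and 45.9 with *L. acidophilus*, 54.4, 71.6 and 56.6 with FK506 and 139, 104 and 109 with the combination. Every combination library exceeded the 9 others. *Cd27* was 2.55-fold higher with the combination than with anti-CD3 alone (log2 change 1.35, SE 0.20, edgeR adjusted p = 0.000236), 1.81-fold higher than with FK506 (adjusted p = 0.0114) and 2.01-fold higher than with *L. acidophilus* (adjusted p = 0.0023). It was the only one of the 10 genes called in all 3 of these comparisons. The whole of *Cd27* lies within the long noncoding RNA gene *E130112N10Rik*, which had 1.73 to 6.11 FPKM and changed by -0.34 with the combination (adjusted p = 0.497). The strand setting of the counting is not given, so reads of the overlapping genes cannot be told apart.

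*Cd28* (chr1:60746388-60773359), the receptor for CD80 and CD86, varied least of the 10. Its level was 125, 93 and 135 FPKM with anti-CD3 alone, 172, 151 and 163 with *L. acidophilus*, 130, 139 and 128 with FK506 and 168, 205 and 220 with the combination. The libraries with *L. acidophilus*, with or without FK506, were all above those without it. *Cd28* was 1.46-fold higher with the combination than with anti-CD3 alone (log2 change 0.55, SE 0.13, edgeR adjusted p = 0.00494) and 1.4-fold higher than with FK506 (0.48, SE 0.13, adjusted p = 0.0222). The change with *L. acidophilus* alone was 0.38 (SE 0.13), with an unadjusted p of 0.0116 that did not pass after adjustment (edgeR adjusted p = 0.201). FK506 alone gave 0.06 (adjusted p = 0.795).

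Among the ligands, *Tnfsf14* (chr17:57189474-57194181), whose upstream bases are shown above, changed most. LIGHT, its product, costimulates T cells through the receptor HVEM and acts on stromal cells through the lymphotoxin beta receptor. It had 11.8, 21.3 and 15.4 FPKM with anti-CD3 alone, 5.88, 14.6 and 13.7 with *L. acidophilus*, 3.08, 2.40 and 2.79 with FK506 and 2.77, 2.49 and 2.76 with the combination. The 6 libraries with FK506 were all below the 6 without it. *Tnfsf14* was 6.96-fold lower with the combination (log2 change -2.80, SE 0.32, edgeR adjusted p = 4.8e-05) and 6.34-fold lower with FK506 alone (-2.66, SE 0.32, adjusted p = 0.000339) than with anti-CD3. Adding *L. acidophilus* to FK506 changed it by -0.13 (SE 0.31, adjusted p = 0.815).

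*Cd40lg* (chrX:57212143-57224042) encodes the ligand through which helper T cells license B cells and dendritic cells. Its level was 16.9, 20.7 and 22.4 FPKM with anti-CD3 alone, 19.8, 34.2 and 31.4 with *L. acidophilus*, 8.45, 6.61 and 8.07 with FK506 and 13.3, 9.14 and 9.45 with the combination. Again the FK506-treated libraries did not overlap with the others. *Cd40lg* was 2.8-fold lower with FK506 (log2 change -1.48, SE 0.22, edgeR adjusted p = 0.00113) and 2.15-fold lower with the combination (-1.11, SE 0.22, adjusted p = 0.00175) than with anti-CD3, and 2.9-fold lower with the combination than with *L. acidophilus* (-1.54, SE 0.22, adjusted p = 0.000359). The combination libraries all lay above the FK506 libraries, a difference of 0.38 that did not pass (SE 0.22, adjusted p = 0.262).

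*Tnfsf11* (chr14:78277446-78308043) encodes RANKL, which T cells use to support dendritic cells and osteoclasts. It had 2.83, 8.56 and 11.5 FPKM with anti-CD3 alone, 5.86, 12.1 and 9.01 with *L. acidophilus*, 15.8, 19.1 and 10.0 with FK506 and 19.6, 27.7 and 27.9 with the combination. The combination libraries were above all others, and anti-CD3 library 1 was the lowest of the 12. *Tnfsf11* was 2.88-fold higher with the combination than with anti-CD3 (log2 change 1.53, SE 0.41, edgeR adjusted p = 0.0108) and 2.55-fold higher than with *L. acidophilus* (1.35, SE 0.41, adjusted p = 0.0251). The latter call was lost without *L. acidophilus* library 1 (1.11, adjusted p = 0.0834) or 3 (1.35, adjusted p = 0.0694) and without combination library 2 (1.27, adjusted p = 0.0671) or 3 (1.28, adjusted p = 0.065). FK506 alone gave 0.87 (SE 0.41, adjusted p = 0.161).

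*Tnfsf8* (chr4:63831202-63861508) encodes the ligand of CD30. Its level was 72.6, 153 and 179 FPKM with anti-CD3 alone, 163, 195 and 223 with *L. acidophilus*, 80.8, 125 and 193 with FK506 and 59, 92.6 and 94.2 with the combination. Library 1 was the lowest in every group, and the combination libraries lay below all 3 libraries of *L. acidophilus*. *Tnfsf8* was 2.55-fold lower with the combination than with *L. acidophilus* (log2 change -1.35, SE 0.35, edgeR adjusted p = 0.0118), a call that was lost with limma on quantile-normalized values (-1.06, adjusted p = 0.0601). Against anti-CD3 alone the change was -0.91 (SE 0.35), which did not pass (adjusted p = 0.0549). It passed without anti-CD3 library 1 (-1.21, adjusted p = 0.00937), without FK506 library 1 (-0.91, adjusted p = 0.037) or 3 (-0.88, adjusted p = 0.0424), over the libraries numbered 2 and 3 only (-1.03, adjusted p = 0.00625), with DESeq2 (-0.86, adjusted p = 0.0286) and with the library number as a block.

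*Lta* (chr17:35203165-35205578) encodes lymphotoxin alpha, which is secreted as a ligand of the TNF receptors or held at the membrane by lymphotoxin beta. It had 98.3, 53.5 and 46.6 FPKM with anti-CD3 alone, 57.5, 29 and 31 with *L. acidophilus*, 56.6, 73.3 and 76.9 with FK506 and 38, 40.7 and 39.9 with the combination. Anti-CD3 library 1 was the highest of the 12, and the combination libraries lay close together below all anti-CD3 and FK506 libraries. *Lta* was 1.94-fold lower with the combination than with anti-CD3 (log2 change -0.96, SE 0.31, edgeR adjusted p = 0.0239). The call was lost without anti-CD3 library 1 (-0.54, adjusted p = 0.123) and without combination library 1 (-0.95, adjusted p = 0.0579), 2 (-0.97, adjusted p = 0.0589) or 3 (-0.95, adjusted p = 0.0634). Against FK506 alone the combination was lower by 0.89 (log2 change -0.89, SE 0.31, adjusted p = 0.0608), which did not pass. Without anti-CD3 library 1 or 3 or *L. acidophilus* library 1 that difference, still -0.89, passed, with adjusted p values of 0.0214, 0.0439 and 0.0296. It also passed with DESeq2 (-0.86, adjusted p = 0.0229), with edgeR after a stricter filter on low counts (-0.88, adjusted p = 0.0456), over the 2 groups alone (-0.90, adjusted p = 0.00514), with the library number as a block and over the libraries numbered 2 and 3 only (-1.02, adjusted p = 0.0045), 8 of 22 alternatives in all.

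*Cd70* (chr17:57145997-57149777), the ligand of CD27, had the fewest reads of the set. It was measured at 1.06, 2.60 and 0.945 FPKM with anti-CD3 alone (66, 126 and 49 counts), 1.09, 0.71 and 0.68 with *L. acidophilus*, 1.31, 1.2 and 0.872 with FK506 and 2.79, 1.04 and 1.2 with the combination (170, 46 and 56 counts). Anti-CD3 library 2 and combination library 1 stood above the other 10. *Cd70* was called in no comparison by edgeR, and its change with the combination against anti-CD3 was -0.06 (SE 0.47, adjusted p = 0.936). This value had no stable sign: it was 0.58 without anti-CD3 library 2 (adjusted p = 0.336), -0.68 without combination library 1 (0.26), and 0.19 and 0.14 without combination library 2 or 3. Another annotated gene, *Gm33566*, shares 976 bases with it and had at most 3 counts in any library.

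**Figure D2:**
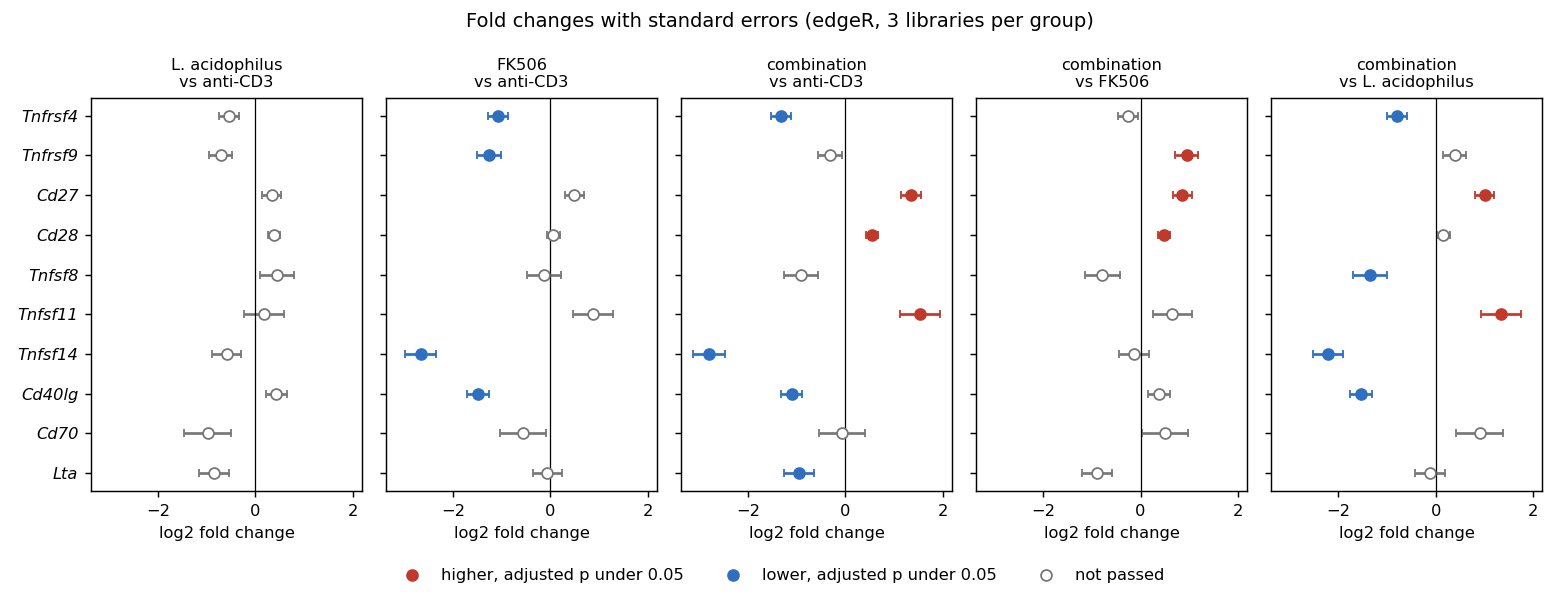
Log2 fold change (horizontal axis) of the 10 genes in 5 comparisons, one per panel, with bars of 1 standard error from edgeR's fit over 3 libraries per group. Filled points passed an adjusted p under 0.05 (red higher, blue lower); none passed with *L. acidophilus* alone, 4 were lower with FK506, and *Cd27* was higher in the 3 comparisons of the combination.

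*L. acidophilus* alone, compared with anti-CD3, gave no call among the 10 genes by edgeR, where 0.229% of all genes were called. An unadjusted p under 0.05, which 14.8% of all genes had, was found for 4 of the 10, *Tnfrsf4* (log2 change -0.54), *Tnfrsf9* (-0.71), *Lta* (-0.85) and *Cd28* (0.38), with adjusted p values from 0.201 to 0.244. DESeq2 also called 0 of the 10. The FPKM ranges of the groups were apart for 2 of the 10, *Tnfrsf9* (lower with *L. acidophilus*) and *Cd28* (higher), and for 17.8% of all genes, a share close to that of the set.

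FK506 alone lowered 4 of the 10 genes, *Tnfsf14*, *Cd40lg*, *Tnfrsf9* and *Tnfrsf4*, each at least 2-fold, and raised none by the edgeR test. Of all genes, 19.0% were called in this comparison, 10.2% as higher and 8.81% as lower, and 10.6% were called with at least a 2-fold change. The changes of *Lta* (-0.06), *Cd28* (0.06) and *Tnfsf8* (-0.12) were smaller than their standard errors of 0.30, 0.13 and 0.35. *Cd27* had a change of 0.49 (SE 0.20, edgeR adjusted p = 0.105), which passed without anti-CD3 library 2 (0.71, adjusted p = 0.0288), without TMM factors (0.61, adjusted p = 0.0385) and with limma on quantile-normalized values (0.63, adjusted p = 0.0236). Beside these genes, 3 of 7 T-cell markers were lower with FK506 than with anti-CD3 (*Lck*, -0.60, *Cd5*, -0.66, and *Cd2*, -0.90, with adjusted p values of 0.0309, 0.0214 and 0.0137) and none was higher, while 10 of 11 B-cell markers were higher. Of the regulatory T-cell markers, *Foxp3* (2.62), *Ikzf2* (3.27) and *Lrrc32* (2.01) were higher with FK506 and *Tnfrsf18* was lower (-0.77). The summed T-cell marker level was 1307 to 2081 FPKM in the anti-CD3 libraries and 1264 to 1397 in those of FK506. The part of these markers in the lower levels was not tested.

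When *L. acidophilus* was added to FK506, *Tnfrsf9*, *Cd27* and *Cd28* were higher and no gene of the set was called lower by the edgeR test over all 12 libraries, where 19.1% of all genes were called, 8.18% as higher and 10.9% as lower. A call with at least a 2-fold change was made for 0 of the 10, against 7.44% of all genes. The FPKM ranges were apart for 6 of the 10 genes, the 3 called with *Tnfsf11* and *Cd40lg*, higher, and *Lta*, lower, against 41.1% of all genes. *Lta* was called lower under the 8 alternatives given above, and *Tnfsf8* under 2 of them, the libraries numbered 2 and 3 only (-0.87, adjusted p = 0.0291) and the library number as a block. The calls depended on single libraries. *Cd28* was lost without FK506 library 1 (0.46, adjusted p = 0.069) or 3 (0.47, adjusted p = 0.0779) and without combination library 2 (0.46, adjusted p = 0.0739) or 3 (0.42, adjusted p = 0.0879). *Tnfrsf9* was lost without FK506 library 2 (0.84, adjusted p = 0.0635) or 3 (0.72, adjusted p = 0.0729) and without combination library 1 (0.84, adjusted p = 0.0567), and *Cd27* without FK506 library 3 (0.82, adjusted p = 0.0514). FK506 library 3 was the one without which none of the 3 passed. Beside these genes, 8 of 11 B-cell markers were lower in the combination than with FK506, and of the T-cell markers *Cd3e* (0.55) and *Cd4* (0.68) were higher. Of the 9 myeloid and dendritic markers tested, 4 were higher in the combination than with FK506 (*Adgre1*, 3.83, *Lyz2*, 3.06, *Cd14*, 2.85, and *Flt3*, 2.28) and *Itgax* was lower (-1.18). Of 7 markers of regulatory T cells, *Foxp3* (1.49, adjusted p = 0.0223) and *Lrrc32* (1.10, adjusted p = 0.0447) were higher and *Il2ra* was lower (-0.70, adjusted p = 0.0106). Their part in these differences was not tested.

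When FK506 was added to *L. acidophilus*, *Cd27* and *Tnfsf11* were higher and *Tnfsf14*, *Cd40lg*, *Tnfsf8* and *Tnfrsf4* were lower, 6 of 10 by edgeR. Of all genes, 33.6% were called there, 16.6% as higher and 17.0% as lower. *Cd28* differed by 0.16 (SE 0.13, adjusted p = 0.372), and *Lta* by -0.11 (SE 0.30, adjusted p = 0.823). *Tnfrsf9* was higher in all 3 combination libraries than in any *L. acidophilus* library, a difference of 0.39 that did not pass (SE 0.24, adjusted p = 0.235). It passed when these 2 groups alone were fitted (0.40, adjusted p = 0.0353). Beside these genes, 10 of 11 B-cell markers and 6 of 9 myeloid and dendritic markers were higher with the combination than with *L. acidophilus*, as were 2 of 7 T-cell markers, and of 7 regulatory T-cell markers 4 were higher and 1 was lower. Their part in these differences was not tested. These comparisons share libraries with those above, so their calls are not separate evidence.

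The combination can also be compared with the sum of both single effects on the log2 scale. *Tnfrsf9* departed from it. The single effects were -0.71 with *L. acidophilus* and -1.27 with FK506, a sum of -1.98, and the combination changed it by -0.32. The departure of 1.66 (SE 0.34, edgeR adjusted p = 0.0219) equals the difference between the effect of *L. acidophilus* with FK506 (0.95) and without it (-0.71). It was the only call among the 10 genes, where *Tnfsf8* was called as well with the library number as a block, and 4.35% of all genes were called, 1.35% as higher. Without *L. acidophilus* library 2 or 3 or combination library 2 it did not pass (1.59, 1.63 and 1.71, with adjusted p values of 0.0661, 0.0612 and 0.0503). For *Tnfsf8* the departure was -1.22 (SE 0.49, adjusted p = 0.195) and for *Cd70* it was 1.47 (SE 0.68, adjusted p = 0.257). For *Tnfsf14*, *Cd40lg*, *Lta*, *Tnfrsf4*, *Cd28* and *Tnfsf11* the departure was smaller than or close to its standard error, between -0.05 and 0.47, and for *Cd27* it was 0.52 (SE 0.28, adjusted p = 0.342).

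**Figure D3:**
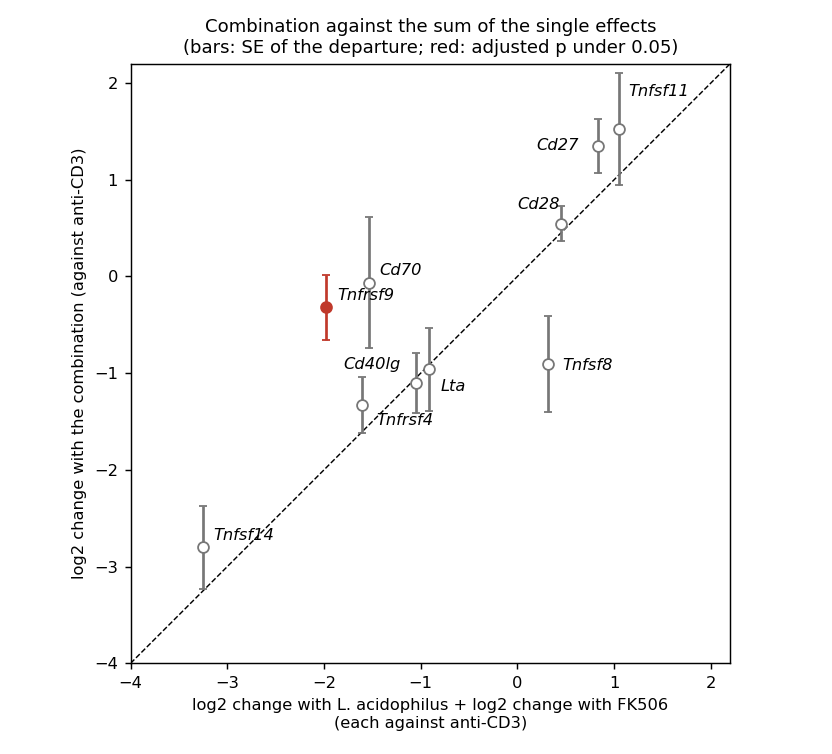
Log2 change with the combination (vertical axis) against the sum of the log2 changes with *L. acidophilus* and with FK506 (horizontal axis), all against anti-CD3 alone, for the 10 genes; bars are 1 standard error of the departure and the dashed line marks equality. *Tnfrsf9* (red) lies 1.66 above the line, the only departure with an adjusted p under 0.05.

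The partners of these molecules were measured in the same libraries. Among the receptors for the ligands of the set, *Tnfrsf14* (HVEM, the receptor of LIGHT) had 8.54, 7.3 and 13.1 FPKM with anti-CD3 alone and 45.7, 53.3 and 54.7 with the combination, with no overlap. It rose by 2.16 on the log2 scale (SE 0.24, edgeR adjusted p = 4.35e-05), while its ligand *Tnfsf14* fell. The other receptor of LIGHT, *Ltbr*, changed by -0.52 with the combination (adjusted p = 0.244) and was lower with FK506 alone (-1.56, adjusted p = 0.0101). *Tnfrsf8* (CD30, the receptor of *Tnfsf8*) was at 91.9, 51.6 and 61.5 FPKM with anti-CD3 and at 27, 30.7 and 31 with the combination, lower in every library (-1.42, SE 0.31, adjusted p = 0.00305). *Tnfrsf11a* (RANK, the receptor of RANKL) had 18, 9 and 8 counts with anti-CD3 and 1112, 631 and 625 with the combination, a rise of 5.95 (SE 0.85, adjusted p = 0.000187) that left it at 2.28 FPKM. The decoy receptor *Tnfrsf11b* (osteoprotegerin) had at most 32 counts in any library and was not called (-0.52, adjusted p = 0.769). *Cd40*, the receptor of CD40 ligand on B cells and dendritic cells, was highest with FK506 (16.2, 15.3 and 11.8 FPKM, against 4.33, 6.02 and 2.93 with anti-CD3), a change of 1.58 (adjusted p = 0.00287), and was 0.80 higher with the combination than with anti-CD3 (adjusted p = 0.0353). Of the TNF receptors, which bind lymphotoxin alpha, *Tnfrsf1b* rose with the combination from 12.9, 9.91 and 10.2 to 65.5, 57 and 57.3 FPKM (2.24, SE 0.28, adjusted p = 7.18e-05), and *Tnfrsf1a* changed by -0.34 (adjusted p = 0.128). *Ltb*, the membrane partner of lymphotoxin alpha, was at 74.3, 90.1 and 41.2 FPKM with anti-CD3 and at 402, 262 and 256 with the combination (1.95, SE 0.37, adjusted p = 0.00129).

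Among the ligands of the receptors in the set, *Cd80* and *Cd86*, which bind CD28, were higher with the combination. *Cd80* was at 4.62, 6.26 and 6.87 FPKM with anti-CD3 and at 19.8, 19.5 and 19.6 with the combination (log2 change 1.69, SE 0.15, edgeR adjusted p = 1.33e-05), and *Cd86* was at 3.3, 1.42 and 1.77 and at 17.8, 12.1 and 11.9 (2.43, SE 0.44, adjusted p = 0.000946). All combination libraries exceeded all others for both. *Tnfsf4*, the ligand of OX40, was at 4.9 FPKM in anti-CD3 library 1 and between 13 and 23.2 in the 11 others, and its change with the combination did not pass (0.50, adjusted p = 0.249). *Tnfsf9*, the ligand of 4-1BB, ranged from 3.82 to 6.46 FPKM over the 12 libraries and changed by 0.13 (adjusted p = 0.574). Antigen-presenting cells express *Cd40*, *Cd80* and *Cd86*, and markers of such cells moved with the same groups. With the combination, 7 of 11 B-cell markers and 6 of the 9 tested of 11 myeloid and dendritic markers were higher than with anti-CD3, and with FK506 alone 10 of 11 and 6 of 9. The summed myeloid and dendritic level was 0.5458 to 0.8679 FPKM in the anti-CD3 libraries, 0.7395 to 1.91 in those of *L. acidophilus*, 2.264 to 10.54 in those of FK506 and 24.52 to 50.32 in those of the combination. *Csf1r*, *Fcgr1*, *S100a8* and *S100a9* had no count with anti-CD3 alone, and *S100a8* had none in any library. The methods describe the isolation of splenic CD4+ T cells by magnetic sorting with CD4 beads. The part of other cells in the partner genes was not tested.

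Other genes of the pathway, 45 in 4 lists of ligands, receptors, CD28 family members and signaling adaptors, moved in both directions. Of the 44 tested, 18 were higher and 8 lower with the combination against anti-CD3 by edgeR (59.1%, against 43.3% of all genes), 11 higher and 8 lower with FK506 (43.2%, against 19.0%), and none either way with *L. acidophilus*. The median log2 change of the 44 with the combination was 0.48, against 0.02 over all genes. *Tnfsf18* and *Tnfrsf17* had no count with anti-CD3. Their lower bounds with a floor of 3 counts over the group, 3.95 and 2.43, lie above this median, so setting them there could not move it. Among 10 ligands tested, 4 were higher and none lower, among them *Tnfsf13b* (BAFF, a survival factor of B cells, 2.91, adjusted p = 4.84e-05) and *Tnf* (0.74, adjusted p = 0.00223). The 4 include *Tnfsf18*, which passed the count filter only through libraries with FK506. It is also among the 18 of 44 above and the 20 against *L. acidophilus* given below. Among 16 receptors, 6 were higher and 3 lower. Of 9 genes of the CD28 family and its ligands, 4 were higher and 2 lower, where *Cd274* (PD-L1, 0.88, adjusted p = 0.000235) rose and *Pdcd1lg2* (PD-L2, -1.16, adjusted p = 0.000224) fell. Of 9 adaptor and signaling genes, 4 were higher and 3 lower, and of the TRAF adaptors *Traf5*, which OX40 and CD27 recruit, rose by 1.65 (adjusted p = 0.00203), *Traf4* fell by 1.47 (log2 change -1.47, adjusted p = 1.53e-05) and *Traf6* fell by 0.48 (adjusted p = 0.0102). With the combination against FK506, 8 of the 44 were higher and 3 lower (25%, against 19.1% of all genes), and against *L. acidophilus* 20 and 3 (52.3%, against 33.6%). The departure from the sum was called for 4 (9.09%, against 4.35% of all genes), *Tnfsf10* (1.27), *Tnfrsf1b* (1.53), *Cd80* (0.87) and *Traf1* (1.34), all positive, with adjusted p values of 0.02, 0.0439, 0.0434 and 0.0131.

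**Figure D4:**
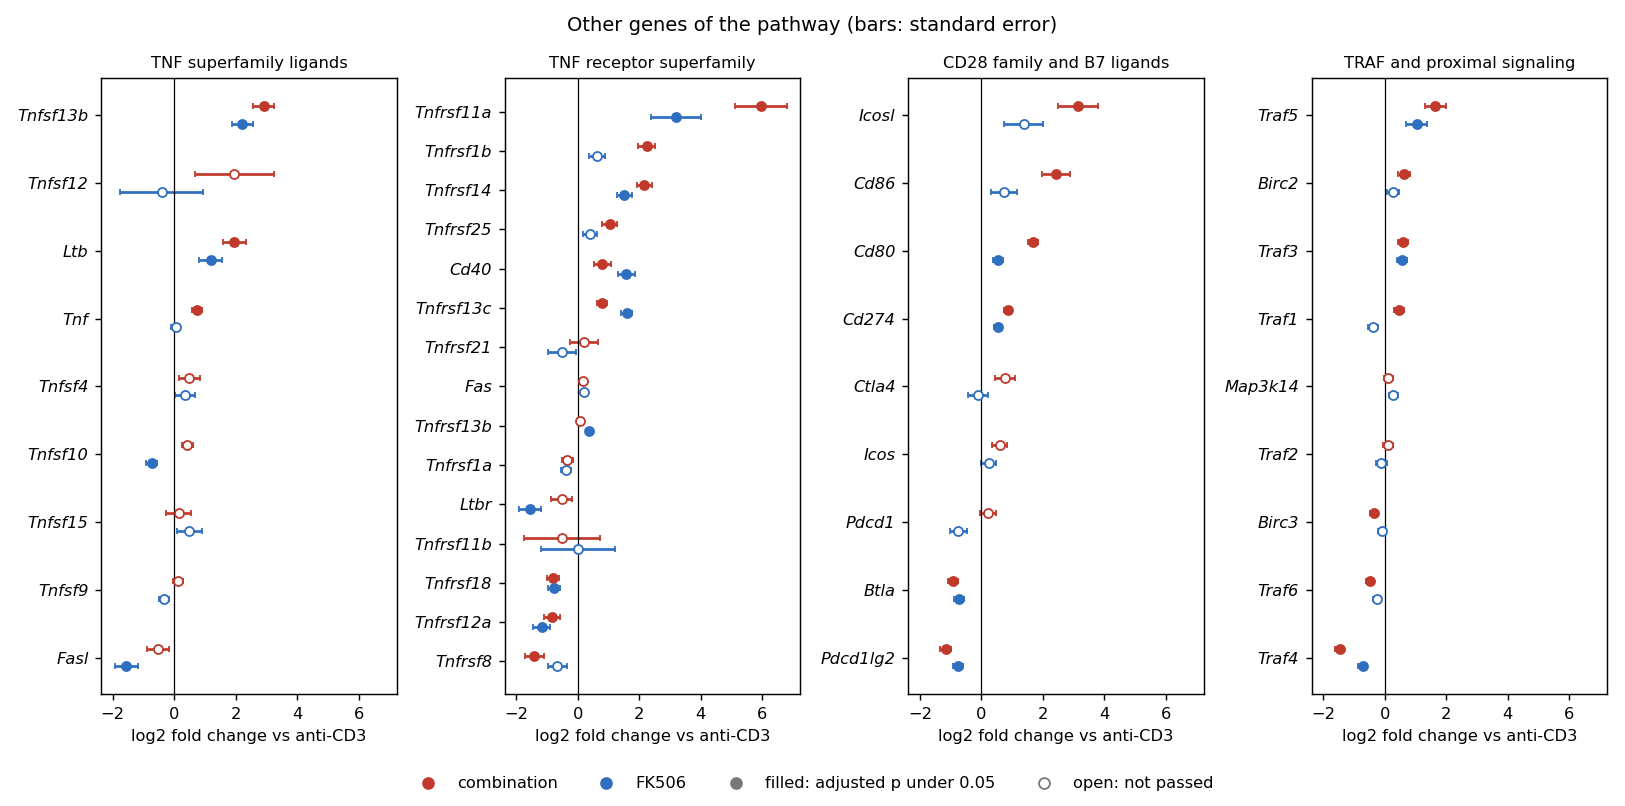
Log2 fold change against anti-CD3 alone (horizontal axis, bars of 1 standard error) with the combination (red) and with FK506 (blue) for 42 further genes of the pathway in 4 lists; filled points passed an adjusted p under 0.05 by edgeR. *Tnfsf18* and *Tnfrsf17*, with no count with anti-CD3, are left out; *Tnfrsf11a* has the highest plotted value, 5.95 with the combination.

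Of the remaining marker lists, 2 of 7 T-cell markers were higher with the combination than with anti-CD3 (*Cd3e* and *Cd4*) and 1 was lower (*Cd2*), and 2 of 5 markers of CD8 T and NK cells were higher, with a summed level of 2.288 to 5.135 FPKM in the anti-CD3 libraries and 4.694 to 7.015 in the combination libraries. Regulatory T cells carry OX40, 4-1BB and GITR at high levels. Of 7 markers of these cells, 3 were higher (*Foxp3*, from a mean of 5.125 to 101.3 FPKM, *Ikzf2* and *Lrrc32*) and 2 were lower (*Il2ra* and *Tnfrsf18*, the gene of GITR, with log2 changes of -1.17 and -0.81), while *Tnfrsf4* fell. Bulk RNA does not show whether the same cells carried these transcripts.

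For each of the 10 genes, the gene with the most similar pattern over the 12 libraries was found among 13356 others, by the root mean square difference of log2 CPM (counts scaled to library size) after centring each gene on its mean. *Cd28* was closest to *Cdk17*, a cyclin-dependent kinase, with a difference of 0.0706, against a spread of 0.26 for *Cd28* itself over the libraries. *Tnfrsf4* was closest to *Emc4* (0.148 against a spread of 0.549), *Cd27* to *Dnajc28* (0.166 against 0.547), and *Tnfsf14* to *Rtkn* (0.22 against 1.26), which fell from a mean of 4.37 FPKM with anti-CD3 to 0.712 with FK506 and 0.607 with the combination. *Cd40lg* was closest to *Col27a1* (0.231 against 0.815), *Tnfrsf9* to *Bspry* (0.231 against 0.565), *Cd70* to *Clec2d* (0.249 against 0.606), *Tnfsf8* to *Snora73a* (0.251 against 0.646), *Lta* to *Bcl2* (0.256 against 0.552) and *Tnfsf11* to *Vwa5a* (0.26 against 0.841). None of the nearest genes was shared between 2 genes of the set.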

How the data were processed

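Poly(A) RNA of 12 samples was sequenced, on a HiSeq per the labels (the methods name a NovaSeq). The submitters' processing notes name Trimmomatic, HISAT2 2.1.0, StringTie 2.1.3b and the build GRCm38 (mm10), and give no strand setting. The authors deposited one table with whole-number counts per gene, which can be rounded StringTie estimates, FPKM values scaled to transcript length and library size, and TPM values. The quantile normalization that the methods name is not visible in the deposited FPKM. Groups and library numbers came from the labels. Counts were tested with edgeR 4.0.16 in R 4.3.3 (TMM factors, 1 mean per group, all 12 libraries, genes above 0 in at least 3 libraries). Standard errors were derived from the log2 change and the square root of its F statistic. DESeq2 1.42.0, limma 3.58.1 on log2(FPKM + 1) or log2(FPKM + 0.1), other filters, a replicate block and each library left out were alternatives. The genes and lists (T-cell, B-cell, myeloid and dendritic, CD8 T and NK, and regulatory T-cell markers, and 4 pathway lists) were chosen with earlier results of these data known. Genes named were the 10, the partner of each, the 3 with the smallest adjusted p per pathway list with the combination, and the nearest gene of each of the 10; further list members named in counts of 5 or fewer, and genes that overlap the 10, were chosen after their values were seen. Sequences and positions are from RefSeq (GRCm38.p6). The edgeR test was tried on simulated counts.

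Libraries with the same number deviated together from their group means in all 3 pairs between anti-CD3 and *L. acidophilus* (correlations of 0.439, 0.276 and 0.14 over 13366 genes). The correlations were also positive between *L. acidophilus* and the combination (0.181, 0.2 and 0.109) and between FK506 and *L. acidophilus* (0.459, 0.055 and 0.413). Between FK506 and the combination they were 0.305, 0.053 and 0.183. Anti-CD3 with FK506 or with the combination gave both signs. No source states a pairing, so the main fit used none and a block of the library numbers was an alternative. No 2 libraries of a group were alike within counting error (chi-square over its degrees of freedom, 4.61 to 205). For a single gene, the smallest two-sided p of an exact permutation test on 3 against 3 libraries is 0.1.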

Additional observations from a re-analysis of the deposited data

Results flagged for a closer look

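The effect of *L. acidophilus* on *Tnfrsf9* differed between cells with and without FK506. In its absence the log2 change was -0.71 and did not pass (edgeR adjusted p = 0.202), with 3 of 3 libraries lower than any anti-CD3 library. In its presence it was 0.95 (edgeR adjusted p = 0.0181), with 3 of 3 libraries higher than any FK506 library. That call was lost without FK506 library 2 or 3 or combination library 1. FPKM ranges were apart in these comparisons for 17.8% and 41.1% of all genes. The difference of 1.66 was tested in the same fit (SE 0.34, edgeR adjusted p = 0.0219), with a range of 6.64e-05 to 0.0661 over the alternatives, in 3 of which, each without 1 library, it did not pass.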

How the results depend on the processing

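Of 1310 single-gene values under the alternatives, 1224 kept their direction and side of the threshold, 40 were called neither before nor after but turned sign (values of *Lta*, *Cd70*, *Cd40lg*, *Tnfsf8*, *Tnfsf11*, *Cd28* and *Tnfrsf9*), 21 newly passed, 24 no longer passed and 1 reversed. The reversed value was *Lta* with FK506 against anti-CD3, which was 0.49 (adjusted p = 0.0431) over the libraries numbered 2 and 3 only, without anti-CD3 library 1. With the combination against FK506, 3 genes were called, against 0 when a 2-fold change was also asked, 5 over the libraries numbered 2 and 3 only, and 0 to 4 with 1 library left out. Leaving out 1 library gave 6 to 8 calls for the combination against anti-CD3, 4 to 5 for FK506, 0 for *L. acidophilus*, 5 to 6 for the combination against *L. acidophilus* and 0 to 1 for the departure from the sum. *Lta* with the combination against anti-CD3 also did not pass without TMM factors (adjusted p = 0.0646) or with limma (0.0969 to 0.231). Without TMM factors the median log2 change of all genes with the combination against anti-CD3 moved from 0.02 to 0.23, and the calls of higher and lower genes from 5076 and 5133 to 6380 and 3756. For *L. acidophilus* against anti-CD3, edgeR called 54 of all genes and DESeq2 1121.

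With the library number as a replicate block, 5 genes were called with the combination against FK506, *Tnfsf8* (-0.72, adjusted p = 0.0205) and *Lta* (-0.92, adjusted p = 0.0437) in addition, and 2 for the departure from the sum, *Tnfsf8* in addition (-1.25, adjusted p = 0.025). *Tnfsf8* also passed with the combination against anti-CD3 (-0.84, adjusted p = 0.00431). The block changed no other call of the 10 genes. What the library numbers stand for is not stated, and 7 of 12 libraries correlated best with their own number. *Cd70*, with 33 to 170 counts per library, had the fewest reads behind its values.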
